A study of Mus musculus with 24 samples.

Results

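The insulin-like growth factor (IGF) axis was followed in mouse digit tips through 10 genes: the ligand Igf1, the receptor Igf1r, the binding protein genes Igfbp2 to Igfbp7, and the pappalysin genes Pappa and Pappa2, whose products are proteases that cut IGF binding proteins. They are 10 of the 15055 genes in the deposited table, and all 10 have values in every library. The genes were taken as the rows of that name in the table. Pappa2 and Igfbp5 were chosen by measured values, being higher after distal than after proximal amputation on each day in these same libraries, so their differences between levels are given as a description, with no test.

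RNA came from hind limb digit tips of C57BL/6 mice, an inbred strain, aged 10 to 12 weeks. Each tip held bone, cartilage, marrow, dermis and epidermis together. The digits had been amputated at a distal or a proximal level and were collected 12, 14 or 21 days after amputation. This gives 6 groups of 4 libraries, with no genetic change or drug in any group and no uncut digit among them, so each comparison is between amputation levels or between days. In adult mice a distal amputation of the digit tip is followed by regrowth and a proximal one is not.

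IGF1 is a secreted growth factor that acts through the receptor tyrosine kinase IGF1R and is a known regulator of bone formation and growth. Most IGF outside cells is held by binding proteins, which extend its life and limit its access to the receptor, and IGFBP5 is abundant in bone, where it binds matrix and mineral. Pappalysins release IGF by cutting binding proteins: PAPP-A cuts IGFBP2, IGFBP4 and IGFBP5, and PAPP-A2 cuts IGFBP3 and IGFBP5, while the stanniocalcins STC1 and STC2 inhibit both proteases.

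Pappa and Pappa2 are paralogs, and the stretch that encodes their zinc site is shown because Pappa2 was higher distally on each day while Pappa had no called difference between levels. Each stretch is 63 bases of coding sequence in exon 4 of 22, read 5′ to 3′ on the coding strand from GENCODE vM21 transcripts (build GRCm38, the same assembly as mm10). Capitals mark the codons of the conserved histidines, glutamate and glycine of the metzincin zinc-binding motif. The Pappa stretch lies at chr4:65180905-65180967 on the plus strand and the Pappa2 stretch at chr1:158857321-158857383 on the minus strand.
Pappa: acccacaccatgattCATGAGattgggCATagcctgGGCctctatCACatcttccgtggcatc
Pappa2: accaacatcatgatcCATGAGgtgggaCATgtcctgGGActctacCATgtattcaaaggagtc
The stretches share 45 of 63 bases and 13 of the 15 bases in capitals. The longest exact run of bases that the Pappa and Pappa2 transcripts share is 24, and the longest over the 45 pairs of member genes is 40.

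The promoters of Pappa2 and Igfbp5 are shown because these genes were higher distally on each day. Each is the 250 bases before the transcript start in RefSeq on GRCm38.p6, read along the gene's strand, at chr1:158958176-158958425 for Pappa2 and chr1:72874866-72875115 for Igfbp5, both on the minus strand. Capitals mark matches to 6 motifs, each searched on both strands, none of which overlap here: the TATA box letters TATAAA, the variant with TTTAAA, the E-box CANNTG, the LEF and TCF core CTTTGA, the GC box GGGCGG and a homeodomain word, TAATTG.
Pappa2: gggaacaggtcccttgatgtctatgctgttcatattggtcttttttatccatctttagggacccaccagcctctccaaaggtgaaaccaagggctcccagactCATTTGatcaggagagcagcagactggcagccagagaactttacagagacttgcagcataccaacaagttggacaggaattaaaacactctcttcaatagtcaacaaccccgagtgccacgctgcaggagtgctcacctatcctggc
Igfbp5: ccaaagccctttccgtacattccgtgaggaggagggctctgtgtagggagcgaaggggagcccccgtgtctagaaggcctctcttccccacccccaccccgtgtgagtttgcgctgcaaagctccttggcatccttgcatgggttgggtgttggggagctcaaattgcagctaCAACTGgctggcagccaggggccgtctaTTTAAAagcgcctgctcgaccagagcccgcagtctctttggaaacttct
The Pappa2 window holds 1 CANNTG match, 2 CpG dinucleotides and 49.2% G and C. The Igfbp5 window holds 1 CANNTG and 1 TTTAAA match, 10 CpG and 58.8% G and C, against medians of 6 CpG and 52.4% over all 32851 mouse promoter windows of this length. Of those windows, 66.2% hold the E-box, 12.1% the TTTAAA variant, 12.4% the TATA box letters, 13.8% the LEF and TCF core, 32.7% the GC box and 7.17% the homeodomain word. The GENCODE model of Pappa2 starts farther upstream, at 158980490, so its RefSeq window lies within the GENCODE gene. Promoters were matched for 9 of the 10 members, and Pappa had no entry.

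The members lie on 7 chromosomes. On chromosome 1, Igfbp2 (72824503 to 72852474, plus strand) and Igfbp5 (72857932 to 72874884, minus strand) point towards each other with 5457 bases between them, and Pappa2 lies at 158711727 to 158980490 on the minus strand. Igf1r is on chromosome 7 (67952827 to 68233668), Igf1 on chromosome 10 (87858265 to 87937042), Pappa on chromosome 4 (65124174 to 65357509) and Igfbp6 on chromosome 15 (102144362 to 102149511), all on the plus strand. Igfbp3 (7206086 to 7213923, minus strand) and Igfbp4 (99041244 to 99054392, plus strand) are on chromosome 11, and Igfbp7 is on chromosome 5 (77349240 to 77408041, minus strand). Igf1 overlaps the antisense gene Igf1os, Igfbp7 overlaps Polr2b and Gm34648 on the other strand, and Pappa2 overlaps 1600012P17Rik on its own strand. These overlaps are of whole gene spans, and shared exons were not checked. No source used here says if counting respected strand, so reads of Igf1 and Igfbp7 may not be separated from those of the other strand. Strand would not separate Pappa2 from 1600012P17Rik. The values of these 3 members carry that uncertainty.

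Values below are the deposited whole numbers, treated here as normalised and not as reads, although no source used here records a normalisation. They are listed in the order of replicates 1 to 4. Table totals ran from 15264829 to 19351055, the depth is unknown, and nothing in the labels ties the libraries of a group to separate mice, so spread between them may be partly technical. The upper quartile of a library ran only from 902.5 to 930.5, and median-ratio factors from 0.9625 to 1.0384. Rescaling to table totals thus undoes a near-equal upper quartile. A difference was called when its p from limma, adjusted over all 15055 genes by Benjamini-Hochberg, was under 0.05. Differences are log2 of the value plus 1, given with the moderated standard error. In whole tissue, fewer cells of a type and less RNA per cell cannot be told apart. Proximal 12 day replicate 1 stood apart from its group in osteoclast markers, which summed to 56354 against 6902 to 16772 in the other 3 libraries, and in cartilage markers, at 8246 against 2882 to 5287, so results at 12 days that change without it are given both ways.

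**Figure D1:**
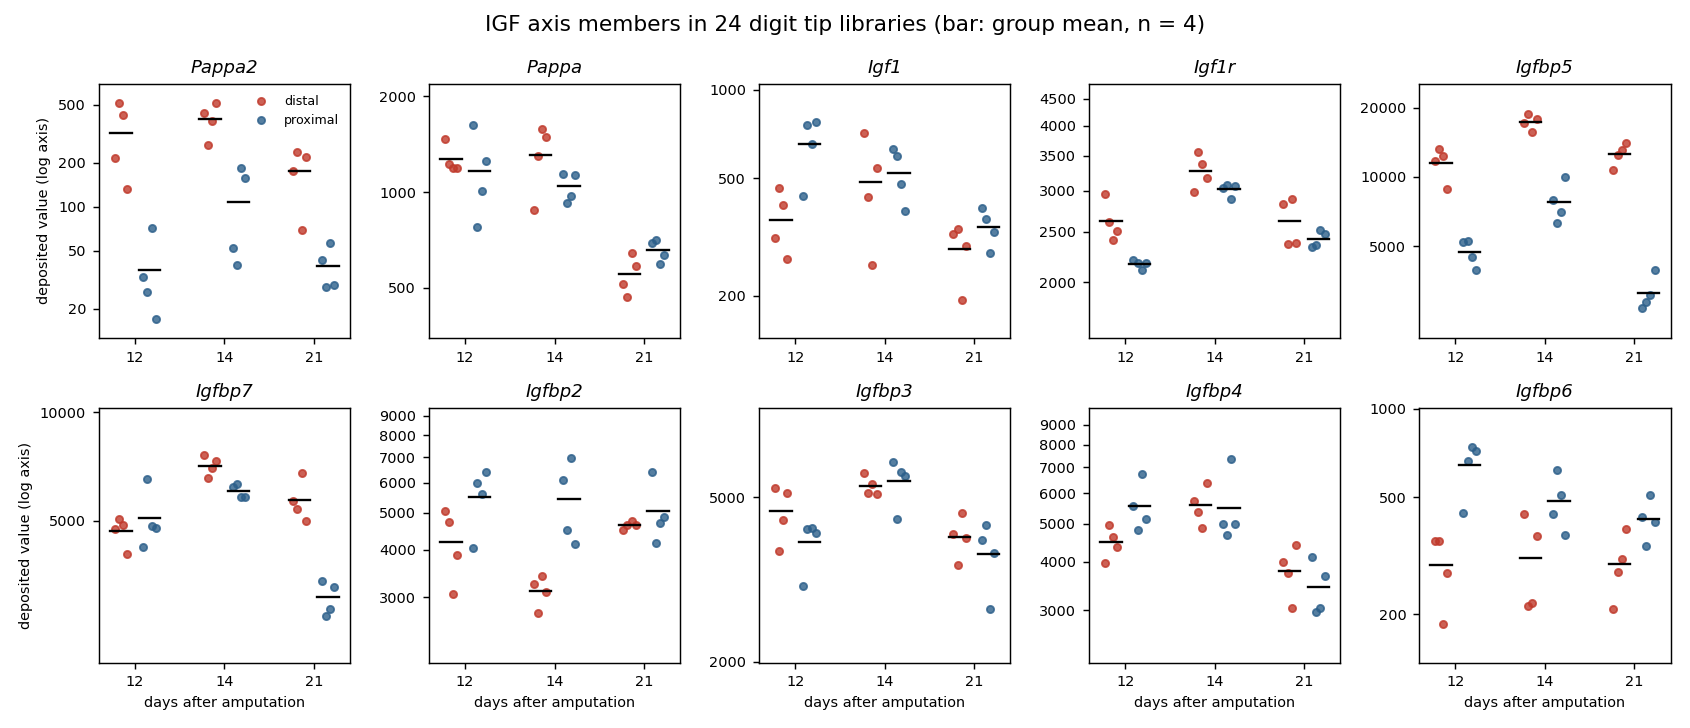
Deposited values (log axis) of the 10 genes in each of 24 libraries by day after amputation, distal in red and proximal in blue, with a bar at each group mean (n = 4). Pappa2 and Igfbp5 were the members whose distal and proximal libraries did not overlap on any of the 3 days.

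Per kilobase of gene length, the mean of each binding protein gene over the 24 libraries was above the means of the receptor, the pappalysins and the ligand. It was 4371 for Igfbp7, 2520 for Igfbp2, 1588 for Igfbp5, 1437 for Igfbp3, 1071 for Igfbp4 and 367 for Igfbp6. It was 160 for Igf1r, 90.6 for Pappa, 44.7 for Igf1 and 17.5 for Pappa2. The ranges over libraries overlapped between each pair of neighbours in this order except Igfbp4 and Igfbp6, whose ranges were 671.9 to 1664 and 166.4 to 668.2. The lowest binding protein gene, Igfbp6, thus overlapped Igf1r (125.7 to 212.4). The order also differed between groups. In the proximal 21 day group Igfbp2 (2731 ± 520) was above Igfbp7 (2540 ± 274), and Igfbp5 (523.4 ± 91.4) was below Igfbp4 (780.4 ± 124). In the distal 14 day group Igfbp5 (2894 ± 225) was above Igfbp2 (1691 ± 158; SD, n = 4).

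Pappa2 was the member with the widest difference between levels. At 12 days its values were 215, 510, 425 and 132 after distal and 33, 26, 71 and 17 after proximal amputation. At 14 days they were 435, 263, 383 and 515 against 52, 40, 184 and 156. At 21 days they were 175, 238, 69 and 218 against 43, 28, 56 and 29. Every distal library of a day lay above every proximal one, although distal replicate 3 at 21 days (69) came close to the proximal libraries of its day. The distal 12 day group was split, with replicates 1 and 4 at 215 and 132 and replicates 2 and 3 at 510 and 425. Its osteoblast marker sums, mostly Col1a1, were 111875, 243913, 211167 and 123549, and its osteocyte sums 55, 958, 773 and 321. Nail matrix, cartilage, dermal fibroblast and mural cell sums were also higher in replicates 2 and 3. Osteoclast, macrophage, skeletal muscle and erythroid sums were lower in them. The part of tissue content in the split was not tested. The fitted difference of Pappa2 was 3.09 ± 0.51 at 12 days (8.52-fold), 2.12 ± 0.51 at 14 days (4.36-fold) and 2.05 ± 0.51 at 21 days (4.15-fold). Of all genes, 62 were called higher distally on all 3 days (0.412%) and 67 did not overlap on all 3 days with distal higher (0.445%).

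Over time, no change of Pappa2 was called at either level, and its interval was wide. Distal libraries were lower at 21 than at 14 days by 1.29 ± 0.51, with no overlap between the days and an adjusted p of 0.0554. That value passed the threshold with table totals (-1.33, adjusted p = 0.0457), with a pseudocount of 8 (-1.24, 0.0446), with weights per library in limma-voom (-1.36, 0.0165), with only the compared groups (-1.29, 0.0226), and without distal 14 day replicate 2 (-1.47, 0.0499) or distal 21 day replicate 2 (-1.48, 0.0470). Limma-voom also divides by table totals, so it shares that scaling. After proximal amputation the difference was 1.43 ± 0.51 from 12 to 14 days (adjusted p = 0.0616) and -1.21 ± 0.51 from 14 to 21 days (adjusted p = 0.0794). The proximal 14 day group was itself split, with replicates 1 and 2 at 52 and 40 and replicates 3 and 4 at 184 and 156. The rise from 12 to 14 days passed without proximal 12 day replicate 3 (1.81, adjusted p = 0.0263), proximal 14 day replicate 1 (1.68, 0.0457) or proximal 14 day replicate 2 (1.81, 0.0242), and the fall to 21 days passed without proximal 14 day replicate 2 (-1.59, 0.0288).

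Pappa, which encodes PAPP-A, had no called difference between levels and fell with time. At 12 days it stood at 1463, 1225, 1186 and 1194 distally and 1624, 774, 1008 and 1249 proximally. At 14 days it stood at 876, 1295, 1578 and 1487 against 1138, 923, 975 and 1128, and at 21 days at 515, 469, 645 and 585 against 690, 707, 595 and 636. The levels overlapped on each day. Distal minus proximal was 0.17 (95% interval -0.20 to 0.54), 0.30 (-0.07 to 0.67) and -0.25 (-0.63 to 0.12) at 12, 14 and 21 days, and none was called. All 8 libraries at 21 days were below all 16 of the earlier days.

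The fall of Pappa was called in 4 comparisons. It fell by 1.22 ± 0.18 from 14 to 21 days distally (2.32-fold, adjusted p = 2.25e-05) and by 0.66 ± 0.18 proximally (1.58-fold, adjusted p = 0.00837). From 12 to 21 days it fell by 1.20 distally (adjusted p = 5.99e-05) and by 0.77 proximally (0.00249). The difference between levels in the 14 to 21 day change was -0.56 ± 0.25 and was not called (adjusted p = 0.228). The ratio of Pappa to Pappa2 per kilobase was 4.91 ± 3.0, 3.26 ± 1.2 and 3.96 ± 3.2 in the distal groups at 12, 14 and 21 days (SD, n = 4), and 38.9 ± 23.9, 13.4 ± 8.78 and 17.2 ± 6.03 in the proximal groups. The lowest ratio in any library was 1.84, so Pappa was above Pappa2 per length in each of the 24.

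Stc1 and Stc2 encode the inhibitors of both proteases. Stc1 stood at 197, 214, 195 and 240 distally and 84, 129, 140 and 128 proximally at 12 days, with no overlap. It was 0.83 ± 0.16 higher distally (1.78-fold, adjusted p = 0.000981), so at 12 days the inhibitor gene and Pappa2 were both higher at the distal level. At 14 days Stc1 stood at 355, 279, 241 and 321 against 421, 332, 314 and 320, and at 21 days at 299, 252, 391 and 280 against 364, 340, 258 and 294. The levels overlapped on both later days (-0.22 and -0.05, not called).

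From 12 to 14 days Stc1 rose 2.90-fold proximally (1.54 ± 0.16, adjusted p = 6.27e-06) and 1.40-fold distally (0.49 ± 0.16, adjusted p = 0.0371). The levels differed in that change by -1.05 ± 0.23 (adjusted p = 0.00497). The smaller distal rise was not called with table totals (0.46), with voom (0.42), or without distal 12 day replicate 1, 2 or 3 or distal 14 day replicate 1, 2 or 4 (0.40 to 0.52). Its distal rise from 12 to 21 days (0.51, adjusted p = 0.0239) was likewise not called with table totals (0.45) or without distal 12 day replicate 1 or 3 or distal 21 day replicate 3 (0.39 to 0.48).

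Stc2 was low and overlapped between levels on each day. It stood at 35, 51, 84 and 85 distally and 94, 77, 90 and 112 proximally at 12 days. It stood at 173, 125, 93 and 91 against 61, 104, 86 and 83 at 14 days, and at 44, 72, 25 and 64 against 62, 57, 57 and 54 at 21 days. Its differences between levels were -0.62, 0.50 and -0.27 with a standard error of 0.29, and none was called. Distally it rose by 0.95 from 12 to 14 days (adjusted p = 0.0251) and fell by 1.27 from 14 to 21 days (adjusted p = 0.0017). The rise was not called with only the compared groups (adjusted p = 0.0653) or without distal 12 day replicate 1 or 2 or distal 14 day replicate 1 or 2 (0.70 to 0.91).

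Igfbp5, the binding protein gene whose product both pappalysins cut, was high in distal libraries on each day. At 12 days it stood at 11768, 13235, 12321 and 8845 distally and 5227, 5259, 4498 and 3960 proximally. At 14 days it stood at 17107, 18825, 15650 and 17933 against 7955, 6298, 7054 and 9993. At 21 days it stood at 10735, 12410, 13158 and 14089 against 2701, 2868, 3071 and 3935. The lowest distal library of all days (8845) was below only 1 proximal library, replicate 4 at 14 days. The fitted difference was 1.28 ± 0.15 (2.43-fold), 1.17 ± 0.15 (2.25-fold) and 2.01 ± 0.15 (4.03-fold) at 12, 14 and 21 days. Among the 8 other members Igf1r alone also had the higher mean distally on each day, by 0.27, 0.11 and 0.11, with overlap at 14 and 21 days.

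Igfbp5 rose from 12 to 14 days and then fell, at both levels. The rise was 0.60 ± 0.15 distally (adjusted p = 0.00564) and 0.71 ± 0.15 proximally (0.00209). From 14 to 21 days it fell by 0.47 ± 0.15 distally (0.0153) and by 1.31 ± 0.15 proximally (1.34e-06). From 12 to 21 days it fell by 0.60 proximally (0.00368), and the distal difference was 0.14 (95% interval -0.17 to 0.44). The distal fall was not called without distal 21 day replicate 1 (-0.39, adjusted p = 0.0567).

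Igfbp5 was a larger part of the binding protein transcripts at the distal level. Per kilobase it made up 17.7% ± 2.14, 21.1% ± 2.01 and 17.9% ± 1.89 of the 6 binding protein genes distally at 12, 14 and 21 days (SD, n = 4). Proximally it made up 7.24% ± 1.55, 10.3% ± 2.43 and 6.51% ± 1.25, and every distal library lay above every proximal one. Igfbp5 was chosen by its values between levels, so its share, and the sum that includes it, are a description with no test. The summed level of the 6 genes was 10810 ± 886, 13720 ± 651 and 11740 ± 728 per kilobase distally and 11060 ± 1380, 12670 ± 943 and 8120 ± 933 proximally. At 21 days all 4 distal sums (11230 to 12800) lay above all 4 proximal ones (7351 to 9324). Igfbp7 made up 40.2% ± 3.54 of the sum distally and 31.3% ± 0.967 proximally on that day.

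**Figure D2:**
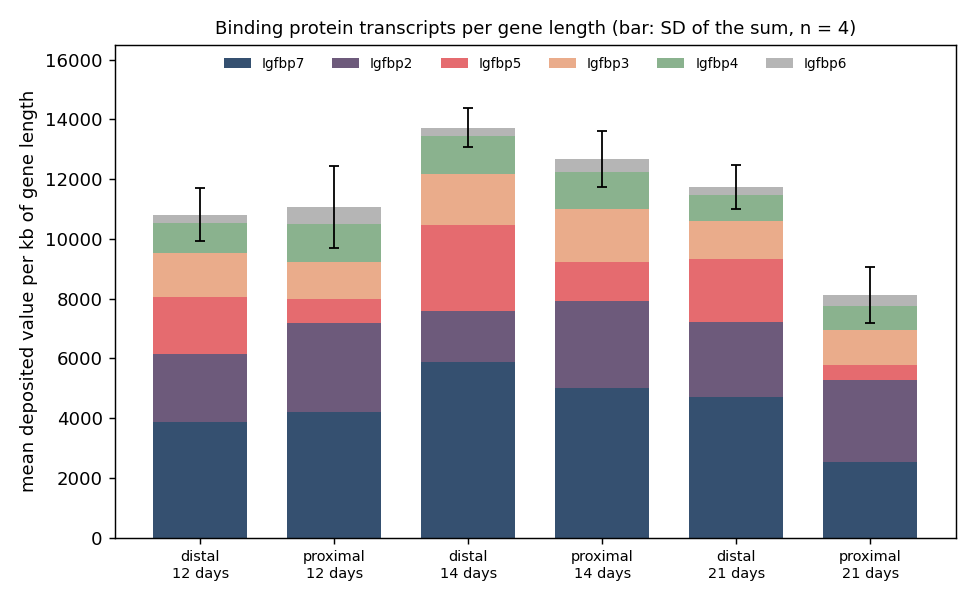
Stacked mean deposited values per kilobase of gene length of the 6 binding protein genes in each group (linear axis from 0, error bar: SD of the sum, n = 4). Igfbp5 made up 17.7% to 21.1% of the distal bars and 6.51% to 10.3% of the proximal bars. It was chosen by its values between levels, so these shares have no test.

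Igfbp7 encodes a secreted protein with low affinity for IGFs. At 12 days it stood at 4740, 5059, 4868 and 4044 distally and 4231, 6513, 4832 and 4774 proximally, and at 14 days at 7591, 6553, 6993 and 7323 against 6192, 6328, 5811 and 5837. At 21 days it stood at 5688, 5378, 6793 and 4984 against 3413, 2736, 2844 and 3292. The levels overlapped at 12 days (-0.11, not called), while at 14 days every distal library was above every proximal one with a difference of 0.23 that was not called (adjusted p = 0.236). At 21 days Igfbp7 was 0.89 ± 0.11 higher distally (1.86-fold, adjusted p = 2.46e-05).

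Distally Igfbp7 rose by 0.61 ± 0.11 from 12 to 14 days (adjusted p = 0.000706) and fell by 0.32 ± 0.11 to 21 days (0.0281). The distal fall was not called with median-ratio factors (-0.27), with voom (-0.31), or without distal 14 day replicate 1 or 4 or distal 21 day replicate 2 or 4 (-0.26 to -0.31). Proximally the 12 to 14 day difference was 0.27 (not called, adjusted p = 0.116), and Igfbp7 then fell by 0.98 ± 0.11 to 21 days (1.77e-06) and by 0.72 between 12 and 21 days (5.88e-05).

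The difference between levels in the change over time was open to a test for 8 members. It was called for 1 of the 8, Igfbp7, from 12 to 21 days, against 14.8% of all genes (7.42% in the same direction, a more positive distal change), and again for Igfbp7 from 14 to 21 days, against 1.90% (1.00% in that direction). From 12 to 14 days limma called it for none of the 8, against 11.7% of all genes, with 1 at an unadjusted p under 0.05 and none called by voom. Igfbp7 differed by 1.00 ± 0.16 from 12 to 21 days (adjusted p = 0.00025) and by 0.66 ± 0.16 from 14 to 21 days (0.0364). The later call lay close to the threshold and was lost with table totals (0.50) or voom (0.55), and without distal 14 day replicate 2 or 3, distal 21 day replicate 1, 2 or 3, proximal 14 day replicate 2 or 3 or proximal 21 day replicate 2 or 3 (0.57 to 0.68). For Igfbp5 the same quantity is made of the level differences that chose it, so it is given with no test. It was -0.11 ± 0.21 from 12 to 14, 0.84 ± 0.21 from 14 to 21 and 0.73 ± 0.21 from 12 to 21 days.

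Among the 8 members open to a test between levels, 3 were called at 12 days (1 higher and 2 lower distally), 1 at 14 days (lower) and 1 at 21 days (higher). Of all genes, 20.3% were called at 12 days (9.25% higher and 11.0% lower), 5.39% at 14 days (2.32% lower) and 17.6% at 21 days (8.22% higher). With 8 members, nothing particular to the axis is read from these counts. The median difference of the 8 was -0.21, 0.00 and 0.00, against -0.03, 0.00 and -0.05 over all genes.

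**Figure D3:**
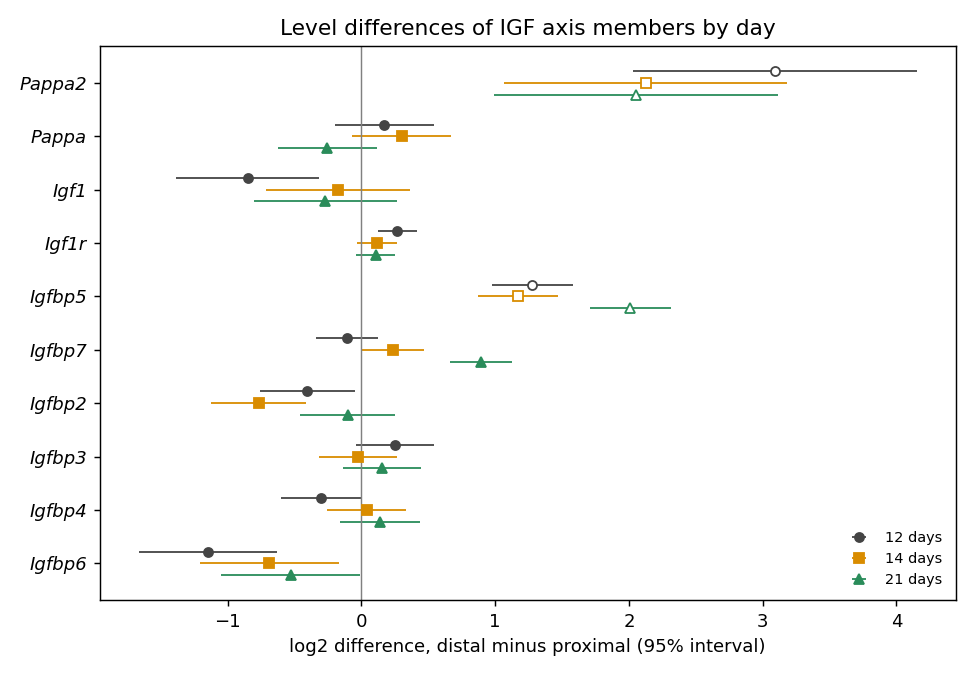
Distal minus proximal difference on the log2 scale for the 10 members at 12, 14 and 21 days, with 95% intervals from the limma fit over 24 libraries. Open symbols mark Pappa2 and Igfbp5, which were not tested between levels, and Igfbp7 moves from -0.11 at 12 days to 0.89 at 21 days.

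Igf1, the ligand gene, was lower distally at 12 days. It stood at 315, 463, 406 and 267 distally and 435, 759, 657 and 777 proximally, and only proximal replicate 1 overlapped the distal range. The difference was -0.85 ± 0.26 (1.81-fold, adjusted p = 0.0228), and -1.04 (0.00978) without proximal replicate 1. It was not called without distal replicate 1 or 4 or proximal replicate 2, 3 or 4 (-0.72 to -0.84). At 14 days Igf1 stood at 711, 434, 254 and 542 against 627, 597, 477 and 388, and at 21 days at 323, 337, 194 and 296 against 398, 363, 279 and 328, with overlap on both days and no call (-0.18 and -0.27).

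Igf1 fell by 0.92 ± 0.26 between 12 and 21 days proximally (1.89-fold, adjusted p = 0.0105, groups not overlapping). Distally it fell by 0.69 ± 0.26 from 14 to 21 days (0.0429). That call was lost with median-ratio factors (-0.63), voom (-0.61), the low-spread covariate (adjusted p = 0.0501) or only the compared groups (0.0974), and without distal 14 day replicate 1, 2 or 4 or distal 21 day replicate 3 or 4 (-0.47 to -0.71). Igf2, the other ligand gene, was named after its values were seen. It stood at 330, 393, 188 and 267 against 185, 351, 441 and 342 at 12 days and at 481, 757, 364 and 545 against 422, 359, 368 and 280 at 21 days, with overlap on each day and no call between levels. Distally Igf2 rose by 0.87 ± 0.27 from 12 to 21 days (adjusted p = 0.0237), with overlap between the days (188 to 393 and 364 to 757). This call was not checked under the alternatives. The Igf1 difference over the same days was -0.33 (not called), and the changes of Igf1 and Igf2 were not tested against each other.

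Igf1r, the receptor gene, varied little between libraries and peaked at 14 days. At 12 days it stood at 2950, 2612, 2411 and 2512 distally and 2208, 2178, 2111 and 2178 proximally, with no overlap. It was 0.27 ± 0.07 higher distally (1.21-fold, adjusted p = 0.0106), which was not called with table totals (0.22, adjusted p = 0.11) or voom (0.22, 0.0535). At 14 days it stood at 2988, 3566, 3368 and 3171 against 3038, 3080, 2897 and 3065, and at 21 days at 2828, 2367, 2897 and 2380 against 2339, 2361, 2522 and 2472. The levels overlapped on both days and the differences of 0.11 were not called, the one at 21 days turning to -0.04 with table totals. From 12 to 14 days Igf1r rose by 0.32 distally (0.00329) and 0.48 proximally (0.000128), and to 21 days it fell by 0.33 (0.00122) and by 0.32 (0.00214), each with a standard error of 0.07. The proximal fall was not called with table totals (-0.21) or voom (-0.19).

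Igfbp6, whose product prefers IGF2 over IGF1, was the lowest binding protein gene and was lower distally. At 12 days it stood at 356, 356, 185 and 276 distally and 443, 666, 743 and 718 proximally, with no overlap. The difference was -1.15 ± 0.25 (2.22-fold, adjusted p = 0.00251) and lay between -0.94 and -1.32 when any 1 of the 8 libraries was left out. At 14 days it stood at 439, 214, 219 and 368 against 439, 617, 508 and 373, and at 21 days at 208, 279, 308 and 391 against 427, 341, 510 and 411. These overlapped and were not called (-0.69, adjusted p = 0.108, and -0.53, adjusted p = 0.148). Without distal 14 day replicate 1 the 14 day value was -0.88 (0.0497), and the 21 day value was called with table totals (-0.67, 0.0446) and voom (-0.77, 0.0228). No change of Igfbp6 with time was called.

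Igfbp2, a binding protein gene whose product PAPP-A cuts and the convergent neighbour of Igfbp5, was lower distally at 14 days. It stood at 3263, 2732, 3408 and 3092 distally and 6082, 4510, 6968 and 4142 proximally, with no overlap. The difference was -0.77 ± 0.17 (1.70-fold, adjusted p = 0.0147). It was not called without distal replicate 2 (-0.71, 0.0528) or proximal replicate 3 (-0.64, 0.057). At 12 days Igfbp2 stood at 5058, 4740, 3056 and 3879 against 4046, 5998, 5605 and 6402, an overlapping difference of -0.40 (adjusted p = 0.1) that was called without proximal replicate 1 (-0.55, 0.0303) and with voom (-0.46, 0.0299). At 21 days it stood at 4498, 4653, 4750 and 4638 against 6416, 4180, 4706 and 4878 (-0.10, not called). Distally it rose by 0.57 ± 0.17 from 14 to 21 days (0.012), the only rise of a member in that interval.

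Igfbp3 and Igfbp4 did not differ between levels by the test on any day. Igfbp3, whose product carries most circulating IGF, stood at 5268, 3709, 4403 and 5118 distally and 3045, 4190, 4215 and 4102 proximally at 12 days. It ranged from 5089 to 5739 against 4422 to 6088 at 14 days and from 3434 to 4572 against 2683 to 4283 at 21 days. Its differences were 0.25 (95% interval -0.04 to 0.54), -0.03 (-0.32 to 0.26) and 0.15 (-0.14 to 0.44). Igfbp4, whose product is a main substrate of PAPP-A, ranged from 3971 to 4970 against 4819 to 6710 at 12 days, from 4869 to 6372 against 4694 to 7347 at 14 days and from 3029 to 4408 against 2967 to 4115 at 21 days. Its differences were -0.30 (-0.60 to -0.01), 0.04 (-0.26 to 0.34) and 0.14 (-0.16 to 0.44), and voom called the first (-0.33, adjusted p = 0.0479).

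Both genes fell from 14 to 21 days at both levels. Igfbp3 fell by 0.42 ± 0.14 distally (adjusted p = 0.0253) and by 0.60 ± 0.14 proximally (0.00306), after a proximal rise of 0.50 from 12 to 14 days (0.02). Igfbp4 fell by 0.56 ± 0.14 distally (0.00385) and by 0.66 ± 0.14 proximally (0.00149), and by 0.69 from 12 to 21 days proximally (0.000979). The distal fall of Igfbp3 was not called with median-ratio factors (-0.36) or without distal 14 day replicate 1 or 3 or distal 21 day replicate 2 (-0.34 to -0.41). Its proximal rise was not called with table totals (0.41) or without proximal 14 day replicate 1, 3 or 4 (0.44 to 0.48) or proximal 12 day replicate 1 (0.38, adjusted p = 0.0851), the library with high osteoclast markers, in which Igfbp3 was lowest.

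Over time, from 12 to 14 days, 3 of 10 members rose distally (Igf1r, Igfbp5 and Igfbp7) and none fell, against 19.4% of all genes called (11.2% higher). Proximally 3 rose (Igf1r, Igfbp3 and Igfbp5) and none fell, against 15.2% (7.35% higher). From 14 to 21 days 7 fell and 1 rose distally, against 34.8% of all genes called (21.5% lower and 13.3% higher), and 6 fell proximally, against 28.7% (16.3% lower). Igf1r, Igfbp3, Igfbp4, Igfbp5, Igfbp7 and Pappa fell at both levels. From 12 to 21 days Pappa was the 1 member called distally, against 23.8% of all genes (15.0% lower), while Igf1, Igfbp4, Igfbp5, Igfbp7 and Pappa fell proximally, against 29.0% (17.0% lower). The median change of the 10 members from 14 to 21 days was -0.44 distally and -0.63 proximally, against -0.04 and 0.00 over all genes. Comparisons that share the 14 day libraries are not independent of each other. The direction of calls over all genes depended on the scaling. From 14 to 21 days proximally, 1876 of 4328 calls were higher, but 3015 of 4578 with table totals and 3509 of 5084 with voom, where 10.4% and 10.5% of all genes were called lower and 5 of the 6 member falls were called (not Igf1r). Distally over the same days, 1996 of 5234 calls were higher, and 2742 of 5500 with median-ratio factors, which called 4 member falls (Igf1r, Igfbp4, Igfbp5 and Pappa). From 12 to 14 days proximally, 1107 of 2288 became 613 of 2199 with table totals and 700 of 2773 with voom. From 12 to 21 days distally, 1326 of 3584 became 675 of 3282 with table totals and 1831 of 3768 with median-ratio factors, which also called Igfbp7 higher.

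Cell type markers moved over the same days. From 14 to 21 days 6 of 6 osteoblast markers were called lower distally and 5 of 6 proximally, and their sum went from 255190 to 526104 down to 79932 to 116411 distally and from 277121 to 460042 down to 55710 to 98826 proximally. Most of this sum was Col1a1 (243732 to 497036 distally at 14 days and 79031 to 113996 at 21 days), so the sum mainly follows that gene. Endothelial markers were called lower in 5 of 5 at both levels, osteoclast markers in 4 of 4 distally and 2 of 4 proximally, and dermal fibroblast markers in 4 of 5 distally and 2 of 5 proximally. Also lower were 2 of 3 osteocyte markers at both levels and, distally and proximally, 2 and 3 of 4 cartilage, 3 and 2 of 5 mural cell and 4 and 1 of 5 macrophage markers. Proximally 2 of 4 nail matrix markers and the 1 skeletal muscle marker were lower. Distally 2 of 5 epidermis markers were higher, and of 4 Schwann cell markers 1 was higher and 1 lower. Matn3, a cartilage marker, was the only one of these at 0 in a library. The part of these cell types in the falls of the IGF members was not tested.

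Markers of nail matrix, a tissue at the distal end of the digit, differed between levels on 2 of the 3 days. All 4 were called higher distally at 12 and at 21 days, with sums of 45639 to 88760 against 4084 to 19764 and of 74711 to 212258 against 19295 to 45482. At 14 days none was called, and the sums overlapped at 63320 to 143918 against 57876 to 123929. Of 5 dermal fibroblast markers, Lum, a matrix proteoglycan gene, was the 1 called higher distally at 14 days, at 18529 to 26458 against 9629 to 13230. The sum of the 5 was 27729 to 38462 against 17868 to 23207, and Pdgfra, Dpt, Dcn and Pi16 overlapped between levels. At 12 days, when Igf1 and Igfbp6 were lower distally, cartilage markers were lower too (2 of 4 called, sums of 971 to 2221 against 2882 to 8246) and so were 2 of 5 macrophage markers (sums of 1962 to 3050 against 2361 to 3928). Also called lower were 1 of 5 dermal fibroblast and 1 of 5 mural cell markers. Called higher were 1 of 3 osteocyte markers and the 1 skeletal muscle marker measured. Of 6 osteoblast markers none was called between levels at 12, 14 or 21 days, with median differences of 0.61, 0.83 and 0.33. Beside the difference of Igfbp7 at 21 days, Lum was again the 1 dermal fibroblast marker called higher, at 6826 to 13578 against 3442 to 5839, the other 4 overlapped, and the sum of the 5 was 11885 to 21974 against 8588 to 13136. At 21 days 1 of 4 cartilage and 1 of 3 erythroid markers were also called higher distally, and 1 of 5 epidermis and 1 of 5 mural cell markers lower. The part of these cell types in the differences between levels was not tested.

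**Figure D4:**
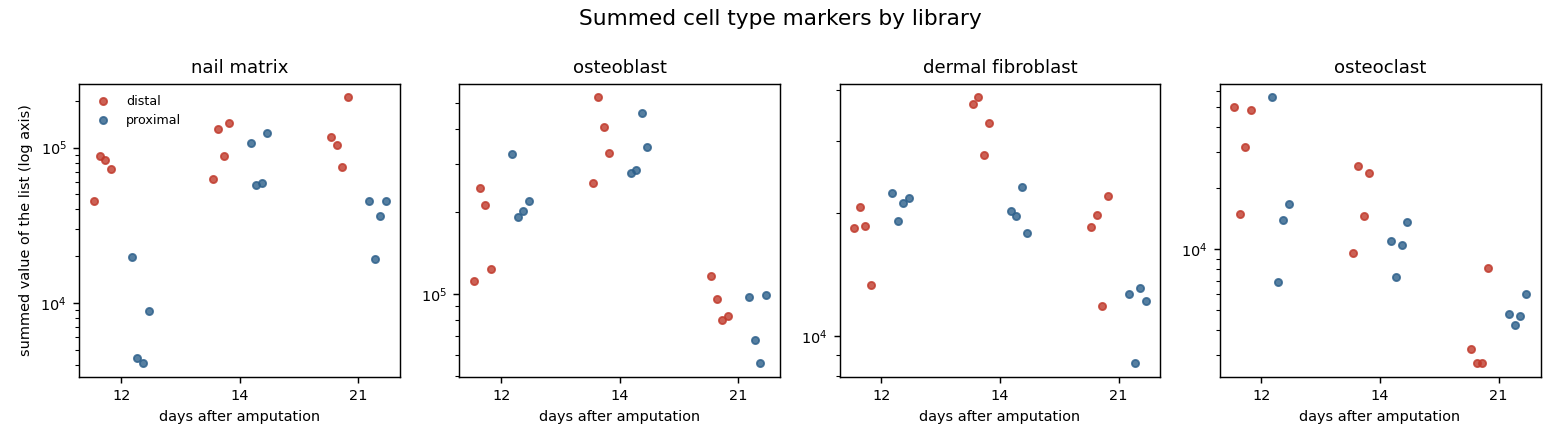
Summed deposited values (log axis) of nail matrix, osteoblast, dermal fibroblast and osteoclast markers in each library by day, distal in red and proximal in blue. Nail matrix sums separate the levels at 12 and 21 days and overlap at 14 days. Osteoblast sums, which are mostly Col1a1, are lower at 21 days at both levels.

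Of 30 other IGF axis genes listed, 24 have rows in the table. Between levels, 1 was called higher and 8 lower distally at 12 days, 2 higher and 1 lower at 14 days, and 3 higher and 3 lower at 21 days. These are 9, 3 and 6 of 24, where 20.3%, 5.39% and 17.6% of all genes were called. Their median difference was -0.22, 0.09 and -0.03 on the 3 days, against -0.03, 0.00 and -0.05 over all genes. The 24 hold 2 of the pappalysin inhibitors described above, receptors, adaptors, other proteases that cut binding proteins, growth hormone signalling genes and RNA-binding proteins.

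Grb10, an imprinted adaptor that restrains signalling from the IGF1 and insulin receptors, crossed over between the levels. At 12 days it stood at 980, 1585, 1520 and 1177 distally and 2142, 1827, 1651 and 1886 proximally, at 14 days at 2522, 3022, 2641 and 2396 against 1567, 1396, 1699 and 1783, and at 21 days at 1089, 1150, 1084 and 1034 against 615, 484, 485 and 582. The levels did not overlap on any day, and the distal libraries were the lower ones at 12 days and the higher ones later. The difference was -0.53 ± 0.12 (adjusted p = 0.00444), 0.72 ± 0.12 (0.00428) and 1.01 ± 0.12 (1.85e-05). From 12 to 14 days Grb10 rose 2.04-fold distally (1.35e-05), and the levels differed in that change by 1.25 ± 0.18 (0.000146).

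Htra1 and Adam12, which encode other proteases that cut IGF binding proteins, were lower distally at 12 days. Htra1, a secreted serine protease, stood at 1143, 1460, 1443 and 1375 distally and 3235, 3156, 3958 and 3879 proximally, with no overlap (-1.39 ± 0.10, 2.62-fold, adjusted p = 5.77e-08). Adam12, a membrane metalloprotease, stood at 339, 518, 560 and 308 against 1343, 650, 827 and 1115, with no overlap (-1.18 ± 0.26, 0.00242). Between the groups this was the opposite direction to Pappa2, which was chosen by its distal values. Within the distal 12 day group, Adam12 and Pappa2 (215, 510, 425 and 132) were both higher in replicates 2 and 3 than in replicates 1 and 4. Osteoblast and osteocyte marker sums of that group were split the same way. Htra1 was still lower distally at 14 days (-0.41, 0.0239), a call lost with voom (-0.37), with only the compared groups (0.0604) and without distal replicate 2 or 3 or proximal replicate 1 or 3 (-0.34 to -0.43). Adam12 was lower distally at 21 days (-0.97, 0.0122), a call lost without proximal replicate 2 (-0.76, 0.0524). Adam9, a related metalloprotease, stood at 2323, 2336, 2280 and 2191 against 1301, 1407, 1305 and 1343 at 21 days and was 0.77 ± 0.08 higher distally (1.70-fold, 4.36e-06).

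**Figure D5:**
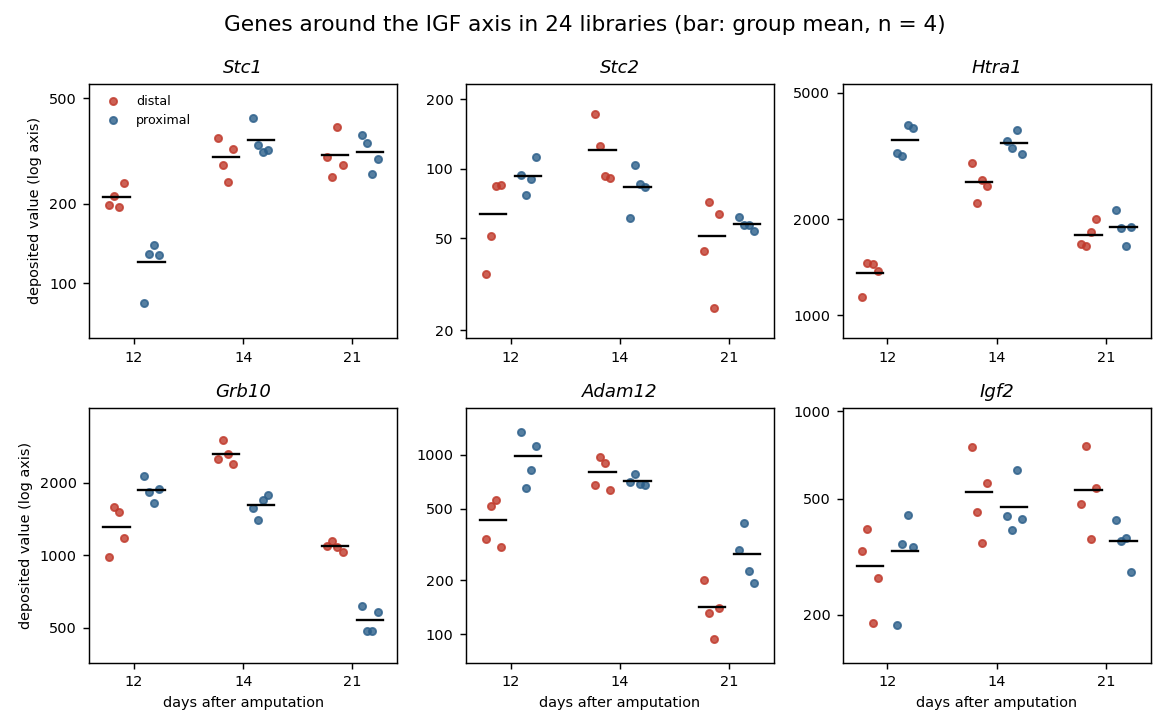
Deposited values (log axis) of Stc1, Stc2, Htra1, Grb10, Adam12 and Igf2 in each library by day, distal in red and proximal in blue, with a bar at each group mean (n = 4). Grb10 is lower distally at 12 days and higher at 14 and 21 days, and Stc1 separates the levels at 12 days.

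At 12 days Igf2r, which clears IGF2 (-0.30 ± 0.10, adjusted p = 0.0382), the adaptors Irs2 (-0.40 ± 0.13, 0.0357) and Shc1 (-0.29 ± 0.08, 0.0153), Stat5a, a growth hormone signal transducer (-0.33 ± 0.11, 0.0332), and the RNA-binding protein gene Igf2bp2 (-0.81 ± 0.20, 0.00622) were lower distally. Foxo1, a transcription factor held back by IGF signalling, was higher distally at 14 days (0.40 ± 0.10, 0.0261), and its relative Foxo3 at 21 days (0.31 ± 0.08, 0.00821). At 21 days Stat5a (-0.46 ± 0.11, 0.00657) and Igf2bp2 (-0.73 ± 0.20, 0.0156) were again lower. Several of these calls rest on single libraries or on the scaling. Igf2r was lost with median-ratio factors (-0.27) and without any library of the comparison but distal replicate 3 (-0.26 to -0.31), and Irs2 with median-ratio factors (-0.38) and without distal replicate 1 or 2 or proximal replicate 1, 2 or 4 (-0.34 to -0.41). Shc1 was lost with only the compared groups (0.0614) and without distal replicate 4 or proximal replicate 3 (-0.23 and -0.25). Stat5a at 12 days was lost with median-ratio factors (-0.31), only the compared groups (0.103) and without distal replicate 1, 2 or 3 or proximal replicate 2 or 3 (-0.25 to -0.34). Foxo1 was lost with voom (0.37), only the compared groups (0.0784) and without distal replicate 2 or proximal replicate 2 or 3 (0.33 to 0.38), Foxo3 with table totals (0.17) and voom (0.18), and Igf2bp2 at 21 days with only the compared groups (0.0721) and without distal or proximal replicate 2 (-0.58 and -0.59).

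Over the 24 libraries, the genes whose log2 values followed Pappa2 most closely, among 12485 genes with a mean value of at least 50, were Gldn (Pearson r = 0.92), C77370 (0.87) and Lef1 (0.86), a Wnt pathway transcription factor. Mean values of Lef1 were 205.8, 229 and 216.2 distally and 39.2, 141.8 and 47.5 proximally at 12, 14 and 21 days. Those closest to Igfbp5 were Mtcl1 (0.95), Zic2 (0.94), a zinc finger transcription factor, and Gdpd5 (0.93). Mean values of Mtcl1 were 547, 1049 and 1140 distally and 172.8, 366.2 and 114.2 proximally. Each r is a description over libraries that share the 6 groups, so it carries the differences between groups and has no test.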

How the data were processed

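Total RNA depleted of ribosomal RNA was sequenced from 24 digit tip libraries. The submitters' processing notes name build mm10 and, as tools, featureCounts 1.6.3, Subread, STAR 2.5.4b and cutadapt. The deposited values are whole numbers treated here as a score, not as reads: over 9650 genes with every value above 100, 1 direction across libraries had an SD of only 0.00675 in natural logs, where Poisson sampling alone would give 0.0453, a ratio of 6.71. No source used here records the normalisation, and no count model was run apart from voom. Voom was used only as an alternative and takes the values as if they were counts. Depth and counting intervals are therefore unknown. Values per kilobase use the deposited gene lengths, another column the authors supplied.

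The values, as log2(value + 1), were fitted with limma 3.58.1 in R 4.3.3 (trended eBayes, 6 group means, 18 residual and 3.91 prior degrees of freedom) in 12 comparisons, and the fit was tested on simulated data. The members, the lists of other axis genes and markers, and the alternatives were chosen with earlier results of these data known. Named genes are the 10 members, listed axis genes called between levels, Stc1, Stc2, and the 3 nearest genes to Pappa2 and to Igfbp5; Igf2 was added after its values were seen. Alternatives were median-ratio factors, table totals, pseudocounts of 0.5 and 8, a mean value of at least 50, a block for replicate number, voom with quality weights, a fit to the compared groups alone, each library left out, and, added after seeing the data, the low-spread direction as a covariate. Voom divides each library by its table total, so it and table totals share that scaling and are not separate checks of it. Same-numbered libraries did not deviate together (correlation above 0.1 in 2 of 12 pairs).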

Additional observations from a re-analysis of the deposited data

Results flagged for a closer look

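In 4 of 72 groups checked, 1 library stood apart from the other 3 by Dixon's test at the 95% level, a rate that chance alone gives in about 1 in 20 groups. These were Igfbp3 in proximal 12 day replicate 1 (3045), Igfbp4 in proximal 14 day replicate 3 (7347), Pappa in distal 12 day replicate 1 (1463) and Stc1 in proximal 14 day replicate 1 (421).

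The change over time differed between levels, by limma's test of the difference, for these genes, where a positive value means a more positive distal change. From 12 to 21 days the difference was 1.00 for Igfbp7, 1.55 for Grb10, 1.31 for Htra1, 0.63 for Irs2, 0.58 for Adam9, 0.50 for Foxo3 and -0.88 for Stc1. From 14 to 21 days it was 0.66 for Igfbp7 and 0.51 for Adam9. From 12 to 14 days it was 1.25 for Grb10, 1.32 for Adam12, 0.98 for Htra1, 0.48 for Igf2r, 0.36 for Shc1, 0.35 for Foxo3 and -1.05 for Stc1. The adjusted p ran from 1.03e-05 for Grb10 (12 to 21 days) to 0.0498 for Shc1.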

How the results depend on the processing

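Of 113 results, 113 kept their direction and side of the threshold with a pseudocount of 0.5 and with a mean value of at least 50. The number was 112 with a pseudocount of 8, 112 with the replicate block and 111 with the low-spread covariate. It was 104 with median-ratio factors, 103 with only the compared groups, and 99 each with table totals and voom. Pappa2 and Igfbp5 had no test between levels or in the differences in change. For these, the same direction and a move under the gene's moderated SD were required instead. With a library left out, 933 checks stayed the same, 120 lost a call, 8 gained one and 19 changed direction. The replicate block ended the call of Stc1 distally from 12 to 14 days (0.49, 0.0547), and called 700 genes between levels at 14 days. Same-numbered libraries of a day did not deviate together (correlations -0.27 to 0.21, 1 of 12 highest with its own number). This cannot show whether they share a mouse or a batch.

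Genes called between levels at 14 days, 811, became 450 with table totals, 316 with voom, 261 with only the compared groups and 277 to 950 with a library left out. At 21 days 2656 became 4186 with table totals and 4151 with voom. For the 14 to 21 day difference 286 became 741, 607, 164 and 181 with table totals, voom, only the compared groups and the low-spread covariate, and 105 to 460 with a library left out. Table totals moved the median of all genes by over 0.1, to -0.19 between levels at 21 days, -0.20 for that difference and 0.11 proximally from 14 to 21 days, and voom moved the same medians to -0.18, -0.19 and 0.12. Voom divides by the same totals, so its shifts are not a separate result. The higher share of calls between levels changed too: 1392 of 3053 at 12 days became 845 of 2542 with table totals and 1074 of 3356 with voom, and 1237 of 2656 at 21 days became 627, 704 and, with median-ratio factors, 1579 of 2610. For the 12 to 21 day difference 1117 of 2234 became 595 of 1969 and 780 of 2373 with table totals and voom, and for the 14 to 21 day difference 151 of 286 became 91, 95 and, with median-ratio factors, 266 of 369.

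With table totals, Igf1r and Igfbp4 at 21 days turned to -0.0372 and -0.0044. None of the results that turned with a library left out was called or, for Pappa2 and Igfbp5 between levels, tested: between levels at 14 days Igf1 (-0.39 to 0.10), Igfbp3 (-0.13 to 0.0255) and Igfbp4 (-0.0299 to 0.19), at 12 days Igfbp7 (-0.19 to 0.0178) and Pappa (-0.008 to 0.35), at 21 days Igfbp2 (-0.19 to 0.0174), Stc1 (-0.17 to 0.0393) and Stc2 (-0.46 to 0.0327), and for Pappa2 the proximal 12 to 21 day change (-0.0731 to 0.59) and the 14 to 21 day difference (-0.42 to 0.32), and for Igfbp5 the 12 to 14 day difference (-0.23 to 0.0154). The cause was not tested.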
